A study of Mus musculus with 28 samples.

Results

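Whole cortex RNA from mice in the chronic phase of experimental autoimmune encephalomyelitis (EAE) was compared with whole cortex RNA from healthy mice, across all genes of the deposited count table. The libraries were chosen by their labels alone: the input libraries of the chronic phase (4 libraries, taken 30 days after immunisation) and of health (5 libraries), which are 9 of the 28 libraries in the series. Input RNA is the RNA of the whole cortex before ribosomes of one cell type were pulled down, so it holds RNA of neurons, glia, vessels and any blood-derived cell. EAE is a mouse model of multiple sclerosis in which immunisation with a peptide of a myelin protein sets off an attack of T cells and myeloid cells on the central nervous system. Every mouse, healthy ones included, carried the Glt25d2 BacTRAP transgene, which tags ribosomes in a set of cortical layer 5 neurons and was made for the pulldown, and the study as a whole asked how these neurons respond to inflammation. Another set of input libraries (5 libraries, acute phase, 15 days after immunisation) entered the same model and is used below only where the chronic change is set against the acute one. The labels attach the immunisation protocol to every sample and do not say whether healthy mice received adjuvant. Strain, sex and age are not given in the sources used here. Neither is whether each library came from a separate mouse, and the p-values therefore rest on the variation among these libraries, which may be technical.

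Inflamed brain tissue can hold interferon-gamma from T cells and type I interferons. The latter are made, among other routes, when the sensor cGAS finds DNA in the cytosol and signals through the adaptor STING1 (gene Sting1) to the kinase TBK1 and the factor IRF3. Interferon receptors act through JAK kinases on STAT proteins, which with IRF9 bind the interferon-stimulated response element (ISRE) or, as STAT pairs, the gamma-activated site (GAS). The target genes include antiviral effectors, immunity-related GTPases and the machinery that loads peptides on MHC molecules for T cells. Microglia and astrocytes, the resident immune and support cells of the cortex, respond with programs of their own, among them complement genes and the astrocyte filament gene Gfap.

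The 9 libraries held 17848273 to 19858188 counts over genes, and levels are given as CPM (counts scaled to a fixed library total) after TMM scaling, a scale on which a gene can be compared between libraries but not with a gene of another length. Markers of cortical neurons were high in every library, as in Slc17a7, the vesicular glutamate transporter of cortical excitatory neurons (1112 to 1454 CPM). In a principal component analysis of the 14 input libraries, the first component (40.7% of the variance) held the healthy libraries at 32.3 to 36.3, the acute ones at -38.1 to -22.3 and the chronic ones at -17.99 to 4.07. The second component (10.3%) set chronic replicate 4 (-29.3) and healthy replicate 3 (-27.9) apart from the other chronic and healthy libraries (-3.29 to 14.6). Chronic replicate 4 was the highest of the chronic libraries in 29.3% of all genes tested but in 100% of the MHC class II and of the interferon-inducible GTPase genes, 94.4% of the homeostatic microglia genes and 80% of the myelin genes. Healthy replicate 3 was the highest healthy library in 25.5% of all genes and in 72.7% of the MHC class II genes. The choroid plexus gene Ttr was listed between 0.95 and 154 CPM in healthy and between 2.08 and 266 CPM in chronic libraries, in no order of group. The part these differences between libraries play in the results was not tested, and counts are therefore also given without chronic replicate 4 and healthy replicate 3. In bulk tissue, fewer cells of a type and less RNA per cell cannot be told apart.

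By the chronic phase the cortex differed from health in 449 of 16381 genes tested (2.74%; edgeR's quasi-likelihood test, Benjamini-Hochberg adjusted p under 0.05). Genes called higher numbered 382 (2.33%) and genes called lower 67 (0.409%), and the sizes were unlike: 246 of the higher genes but 1 of the lower ones changed at least 2-fold. The median log2 change was 1.31 among higher genes and -0.24 among lower ones, a median fall of 15.2%. The higher genes were mostly of low abundance in health, with a median of 1.52 CPM against 18.4 CPM for all genes tested, whereas the lower genes were abundant, with a median of 172 CPM. The groups of CPM values did not overlap in 395 of the 449 called genes, and in 1005 of all 16381 genes tested (6.14%). By edgeR, 2310 of the 16381 had an unadjusted p under 0.05, 1346 higher and 964 lower. Unadjusted counts of the lists below are to be set against these. Of the 382 higher genes, 10 had 0 healthy counts and 18 had 1 to 3. These passed the filter on low counts only through EAE libraries. The share of calls in a list that holds such genes cannot be weighed against the share over all genes. Without chronic replicate 4 and healthy replicate 3, 195 genes were higher and 23 lower. The count of lower genes fell to 24 without chronic replicate 4, 32 without healthy replicate 1, 35 without healthy replicate 5 and 43 without healthy replicate 2, and the total fell to 250 without chronic replicate 4. When the 14 pulldown libraries were fitted together with the 14 input libraries, which raised the common biological coefficient of variation from 0.101 to 0.71, edgeR called 0 genes (120 at an unadjusted p under 0.05). DESeq2 called 687 genes on the input libraries.

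**Figure D1:**
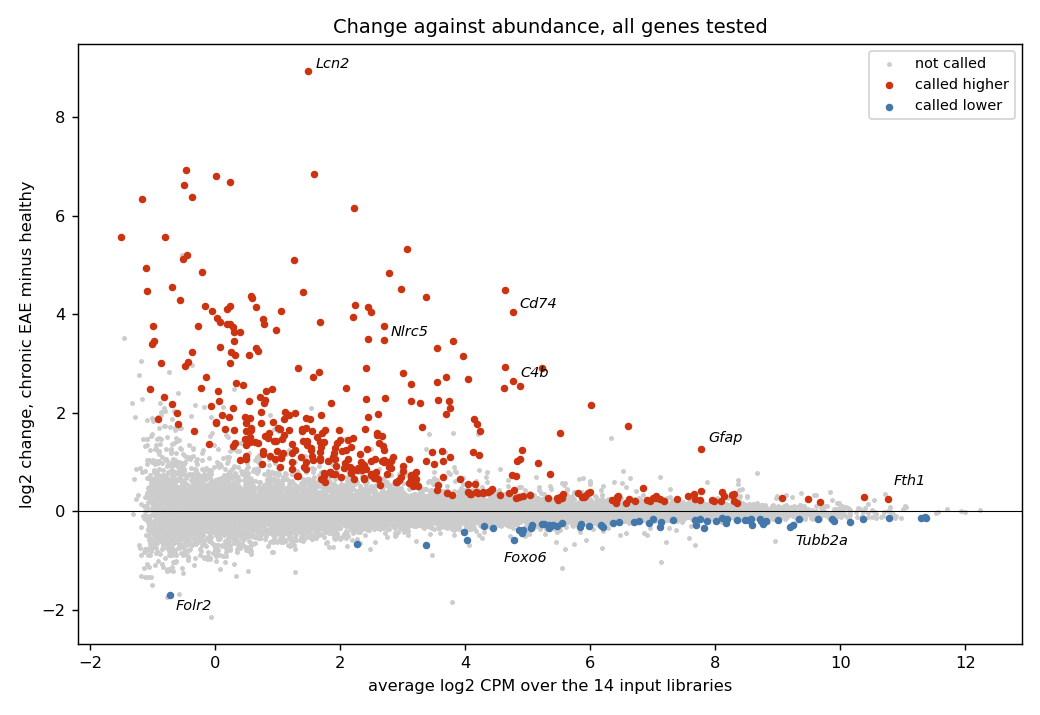
Log2 change in chronic EAE against healthy cortex (y axis) against average log2 CPM over the 14 input libraries (x axis), each point a gene tested. The 382 genes called higher (red) lie mostly at low abundance with large changes, and the 67 called lower (blue) at high abundance with changes near 0. The fitted change of genes without healthy counts, such as Lcn2, depends on the model's prior.

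Every tested member of the interferon-inducible GTPases was higher in the chronic cortex. These proteins coat and break the vacuoles of intracellular microbes, and the 13 tested members were all called (2.33% of all genes tested were), with a median log2 change of 2.91 against 0.00 over all genes. Irgm2 (GRCm38, chr11:58199618-58222779, plus strand) stood at 1.60, 3.68, 2.20, 2.06 and 2.44 CPM in the healthy libraries and at 13.2, 20.4, 10.8 and 28.2 CPM in the chronic ones. The groups were far apart, and the log2 change was 2.93 (SE 0.35, adjusted p = 0.00142). Igtp (chr11:58199556-58207591), most of which lies within the span counted for Irgm2, rose by 2.55 (SE 0.44, adjusted p = 0.00857). It went from 2.48 to 3.66 CPM in health to 9.44, 18.2, 9.70 and 36.4 CPM. Irgm2 and Igtp share exon bases on the same strand (4.39% of those of Irgm2, 8.01% of those of Igtp), where reads cannot be told apart. Gbp2, a guanylate-binding protein, went from 0.451 to 1.10 CPM to 3.83, 8.34, 4.85 and 11.3 CPM, a log2 change of 3.16 (SE 0.47, adjusted p = 0.00361). Iigp1 rose by 4.5 (SE 0.58, adjusted p = 0.00225). In each of these 4 genes chronic replicate 4 was the highest library, and the lowest chronic library exceeded the highest healthy one. Without the 2 libraries that stood apart, 10 of 14 tested members were called, and Irgm2 kept a log2 change of 2.61. Tgtp1 and Tgtp2 are near-identical copies among which reads can be split, as are several Gbp genes, so their separate values are uncertain.

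Matches to the elements that STAT and IRF proteins are known to bind were looked for in the promoters of these genes, and stretches of 5 promoters that hold a match, from genes in 4 roles, are shown for that reason. Sequences are from RefSeq (GRCm38.p6), 5′ to 3′ on the gene's strand, and capitals mark matches to the ISRE core GAAANNGAAA or the GAS consensus TTCNNNGAA on either strand.
Irgm2, chr11:58214857-58214976, plus strand, the 120 bases before the RefSeq start: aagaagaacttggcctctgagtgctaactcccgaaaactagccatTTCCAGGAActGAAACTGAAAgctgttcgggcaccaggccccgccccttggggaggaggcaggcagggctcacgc
Igtp, chr11:58199436-58199555, plus strand, the 120 bases before the start: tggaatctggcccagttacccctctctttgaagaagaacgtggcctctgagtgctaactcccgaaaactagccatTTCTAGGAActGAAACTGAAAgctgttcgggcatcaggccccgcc
Bst2, chr8:71537504-71537623, minus strand, 151 to 32 bases before the start: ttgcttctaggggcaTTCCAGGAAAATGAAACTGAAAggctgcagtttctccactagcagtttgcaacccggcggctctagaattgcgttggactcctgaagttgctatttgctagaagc
B2m, chr2:122147533-122147652, plus strand, 154 to 35 bases before the start: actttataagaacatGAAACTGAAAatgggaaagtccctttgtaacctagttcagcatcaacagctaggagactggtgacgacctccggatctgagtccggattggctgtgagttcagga
Cxcl10, chr5:92348998-92349117, minus strand, 228 to 109 bases before the start: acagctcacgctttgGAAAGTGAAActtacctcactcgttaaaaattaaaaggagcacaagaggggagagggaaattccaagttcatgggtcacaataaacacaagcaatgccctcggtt
The RefSeq start of Irgm2 lies inside the span counted for that gene, not at its first base. Igtp and Irgm2 have a GAS match 2 bases before an ISRE match. The printed bases around these matches are nearly the same in both genes, so they are not separate cases. Their longest run of identical bases (55) lies elsewhere in the 250 bases before their starts and holds neither motif. Whether other GTPase promoters share sequence in this way was not tested. Bst2 has a GAS match that runs into 2 overlapping ISRE matches, and B2m and Cxcl10 have 1 ISRE match each. Over the 250 bases before the start, the ISRE core was found in 8 of the 9 GTPase promoters in the RefSeq table and in 10 of 28 promoters of the antiviral list, but in 3 of 20 of MHC class I, 1 of 8 of MHC class II, 1 of 13 of complement and 3 of 24 of reactive astrocyte genes. The GAS consensus was found in 5, 5, 2, 1, 0 and 1 of these promoters, in the same order. The ISRE core was found in 46 of 297 promoters of genes called higher (15.5%), in 2 of 50 of genes called lower (4%; Gprasp1 and Pcsk1) and in 319 of 12014 of all genes tested (2.66%). The GAS consensus was found in 27 promoters of higher genes (9.09%), 1 of lower genes (2%) and 705 of all (5.87%). A match says only that these letters are present in the window.

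Antiviral interferon-stimulated genes were higher as well: 26 of 40 tested members rose and none fell, with a median log2 change of 1.54. Ifitm3, which blocks the entry of enveloped viruses, stood at 3.19 to 5.24 CPM in health and at 11.6, 14.3, 11.7 and 17.9 CPM in the chronic phase (log2 change 1.78, SE 0.20, adjusted p = 0.000548). Oas1a, which makes the signal that activates RNase L, rose by 2.82, Bst2, which tethers budding virions, by 2.26 and the nucleic acid sensor Zbp1 by 4.18. Outside the list, the restriction factor Apobec3 rose by 1.54. Other classic members did not pass the test although their groups did not overlap. Isg15, a ubiquitin-like modifier, stood at 1.55, 2.03, 1.35, 1.62 and 2.38 CPM against 3.55, 6.30, 4.85 and 6.80 CPM (1.59, SE 0.41, adjusted p = 0.0634), and Ifit1 gave 1.57 (adjusted p = 0.117). The summed CPM of the list was 159 to 196 in health and 264 to 308 in chronic replicates 1 to 3 but 405 in chronic replicate 4. In the antiviral list 17 members were called without that library and 15 without both libraries that stood apart.

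Of the genes that carry the interferon signal, 7 of 26 were higher and none lower, with a median of 0.23. The interferon genes Ifng and Ifnb1, below the filter, had 0 counts in every healthy and every chronic library. In the acute libraries together they had 11 and 0 counts. Irf8, a factor of microglia and other myeloid cells, went from 5.15 to 6.04 CPM to 12.2, 11, 10.1 and 11.9 CPM (1.02, SE 0.15, adjusted p = 0.000945), with little spread in either group. Irf9 rose by 1.15 and Irf1 by 1.21. Irf7, the amplifier of type I interferon production, stood at 0.921 to 3.29 CPM in health and at 5.16, 6.41, 5.49 and 8.06 CPM in the chronic phase (2.10, SE 0.41, adjusted p = 0.0167). The calls of Irf1 and Irf7 were lost without chronic replicate 4 (adjusted p = 0.0515 and 0.0764), and that of Irf7 also without healthy replicate 1 (adjusted p = 0.051). Without chronic replicate 4 only 2 of the 26 were called. Stat2 was at 16 to 21.0 CPM in health and at 20.4 to 23.7 CPM in the chronic phase (0.33, adjusted p = 0.206).

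Sting1 itself, listed under its earlier symbol Tmem173 (ENSMUSG00000024349, GRCm38 chr18:35733678-35740554, minus strand), was a gene of low level in whole cortex. It stood at 0.70, 0.329, 0.732, 0.487 and 0.998 CPM in healthy libraries and at 1.55, 1.47, 1.07 and 2.74 CPM in chronic ones. The groups did not overlap, and the log2 change was 1.39 (SE 0.34, adjusted p = 0.0287). This call was lost without chronic replicate 4 (adjusted p = 0.168) and without healthy replicates 1, 2 or 4 (adjusted p = 0.0621, 0.0763 and 0.0722), and it was 1.11 (adjusted p = 0.184) without both libraries that stood apart. The other 6 genes called among 20 tested genes of cytosolic nucleic acid sensing all belong to the Ifi200 family of DNA sensors, whose members resemble each other closely enough that reads may be shared. Ifi204 went from 0.05, 0.11, 0.394, 0.163 and 0.0555 CPM to 1.72, 3.30, 1.55 and 2.42 CPM (3.84, SE 0.42, adjusted p = 9.56e-05). Ifi209 rose by 4.07, Ifi211 by 3.79 and Ifi207 by 3.31, and Ifi205 had 0 counts in the healthy libraries together and 39 in the chronic ones, at least 15.9-fold higher. The enzymes and kinases of the route gave no call: cGAS (Cgas) was at 0.832 to 1.80 CPM in health and 1.72 to 2.29 CPM in the chronic phase (0.43, SE 0.27, adjusted p = 0.503). The log2 change was -0.05 for Tbk1 (adjusted p = 0.838), 0.12 for Irf3 (adjusted p = 0.62) and 0.30 for the RNA-sensing adaptor Mavs (adjusted p = 0.282). The list's median was 0.47, and with only the 9 chronic and healthy libraries in the fit 2 of 17 members were called.

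MHC class I genes, which present peptides from inside the cell to CD8 T cells, were higher in 11 of 23 tested members, and all 23 had a positive change (median 1.07). Nlrc5, the transactivator of class I genes (chr8:94472763-94527272), went from 0.60, 0.549, 0.394, 0.433 and 0.444 CPM to 4.11, 4.58, 5.01 and 8.27 CPM. This change of 3.48 (SE 0.32, adjusted p = 4.69e-05) was large against the spread in either group. The heavy chain H2-K1 (chr17:33996017-34000333) rose by 2.90 (SE 0.51, adjusted p = 0.0105), from 3.80 to 7.15 CPM to 25.7, 23.1, 17.1 and 89.3 CPM. The shared light chain B2m rose by 1.73 (SE 0.32, adjusted p = 0.0134), with 64.8 to 86.9 CPM in chronic replicates 1 to 3 and 209 CPM in chronic replicate 4, and both genes were called without that library. The immunoproteasome genes Psmb8 and Psmb9 rose by 2.69 and 2.63 and the peptide transporter Tap1 by 2.58. H2-Q4, H2-Q6 and H2-Q7 (3.75, 4.45 and 3.94) are near-identical copies and their separate values are uncertain. Without the 2 libraries that stood apart, 10 of the 23 were called, with a median of 0.76.

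MHC class II genes, which present extracellular peptides to CD4 T cells and are carried in brain by activated microglia and infiltrating myeloid and B cells, were higher in 8 of 11 tested members (median 1.99). Cd74, the invariant chain, went from 1.75, 1.81, 2.48, 2.06 and 1.44 CPM to 21.3, 16.8, 16 and 72.5 CPM (4.05, SE 0.53, adjusted p = 0.00257). H2-Aa, an alpha chain, went from 0.275 to 0.957 CPM to 6.66, 7.32, 6.08 and 25.3 CPM (4.35, SE 0.59, adjusted p = 0.00266), and H2-Ab1 and H2-Eb1, beta chains, rose by 4.5 and 3.31. In each of these genes chronic replicate 4 held more than 3 times the level of any other chronic library, and those 3 libraries still lay above every healthy one. The summed CPM of the list was 19.3 to 31.0 in health, 61.0 to 73.0 in chronic replicates 1 to 3 and 216 in chronic replicate 4, and 7 of 11 members were called without the 2 libraries that stood apart. Ciita, the class II transactivator, was called at 1.66 (adjusted p = 0.0214), and that call was lost without chronic replicates 2 or 4 or healthy replicates 1, 3 or 5 (adjusted p = 0.0744, 0.0908, 0.0708, 0.0514 and 0.0684).

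**Figure D2:**
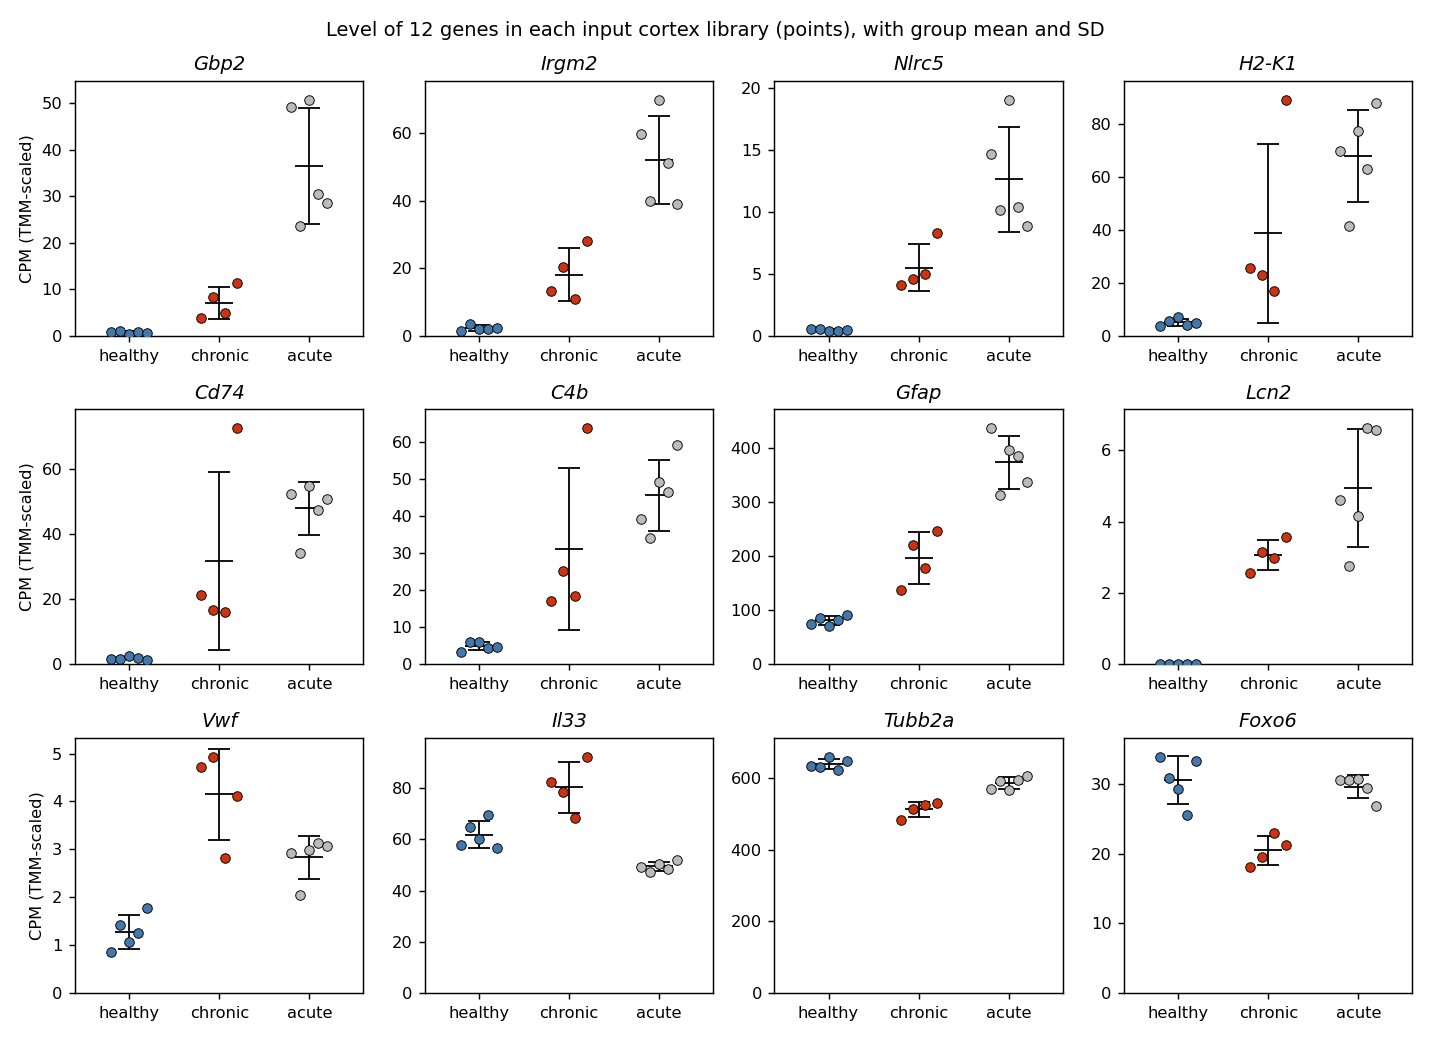
Level of 12 genes in CPM (y axis, linear from 0) in each healthy (blue), chronic (red) and acute (grey) input library, with group mean and SD as bars. Chronic values of the interferon and MHC genes lie between healthy and acute values or near the acute ones, and chronic replicate 4 is the high point of H2-K1, Cd74 and C4b. Il33 is higher in chronic than in acute libraries, and all 4 chronic values of Foxo6 lie below those of the other 2 groups.

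Complement genes, a protein cascade that tags debris and synapses for uptake, were higher in 6 of 20 tested members (median 1.17). C4b, made by astrocytes and microglia, went from 3.40 to 6.04 CPM to 17.1, 25.2, 18.5 and 63.5 CPM (2.65, SE 0.41, adjusted p = 0.00502). C3, the central component, rose by 3.68 (adjusted p = 0.0159) from 0 to 0.222 CPM to 1.22, 0.762, 0.426 and 3.42 CPM, and lost its call without healthy replicate 1 (adjusted p = 0.0537). C1qb, a subunit of the first component, was called (1.64, adjusted p = 0.0215) but not without healthy replicates 1, 2 or 4 (adjusted p = 0.0642, 0.057 and 0.0546). C1qa gave 1.58 (adjusted p = 0.0524). The list's count was 3 without chronic replicate 4 or healthy replicate 4 and 2 without healthy replicate 1, but 5 without the 2 libraries that stood apart, and 2 of 16 with only the 9 chronic and healthy libraries in the fit.

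Receptors for antibody Fc parts and their adaptors were higher in 7 of 10 (median 1.07). Fcgr4, an activating receptor of macrophages, had no count in the 5 healthy libraries and 53 in the chronic ones (0.333, 0.813, 0.426 and 1.21 CPM). That is at least 21.7-fold higher when the healthy total is set to the limit of 3 counts (adjusted p = 0.000868). Fcgr1 rose by 1.43 and the inhibitory receptor Fcgr2b by 1.88. Tyrobp, the adaptor of many myeloid receptors, was called at 1.06 (adjusted p = 0.0202) with overlapping groups. Tyrobp lost its call without chronic replicate 4 or healthy replicates 1, 2, 4 or 5 (adjusted p = 0.0957, 0.0651, 0.0561, 0.0559 and 0.0543). The count was 3 without chronic replicate 4 or healthy replicate 1 and 4 without healthy replicates 2, 4 or 5 or without the 2 libraries that stood apart. It was 2 of 9 with only the 9 chronic and healthy libraries in the fit.

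Chemokines, the small proteins that draw leukocytes into tissue, were among the genes with the widest gap to health, with 10 of 26 tested chemokine and receptor genes higher and none lower (median 0.95). Cxcl9, a ligand of the T cell receptor CXCR3 induced by interferon-gamma, had 1 count in the healthy libraries together and 149 in the chronic ones (0.888, 1.07, 0.959 and 4.95 CPM), a ratio of 183 (95% counting interval 32.3 to 7262). Ccl5, a T cell and NK cell chemokine, had 3 and 208 counts (1.83, 2.24, 1.39 and 5.53 CPM), a ratio of 85.0 (28.7 to 415.5). These intervals cover counting error alone. Cxcl10, another CXCR3 ligand, stood at 0.0542 to 0.166 CPM in health and at 1.28, 2.54, 1.44 and 5.27 CPM in the chronic phase (4.83, SE 0.85, adjusted p = 0.00782). It missed the threshold without the 2 libraries that stood apart (adjusted p = 0.0794). Ccl12 went from 0.05 to 0.384 CPM to 1.28, 1.32, 1.23 and 1.37 CPM (2.48, adjusted p = 0.000945) and Ccl22, a dendritic cell chemokine, to 0.999, 2.03, 0.799 and 2.53 CPM (3.34, adjusted p = 0.000602). Ccr2, the receptor of blood monocytes, rose by 1.96 (adjusted p = 0.012). Without those 2 libraries 6 of 27 were called.

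Markers of leukocytes that enter from blood were near the limit of detection, so most could not be tested. Ptprc (CD45), carried by all leukocytes and by microglia, went from 0.665 to 1.26 CPM to 4.88, 1.88, 1.87 and 6.01 CPM (1.90, SE 0.34, adjusted p = 0.00415). Of the T and NK cell list, 13 of 33 genes passed the filter and 3 were higher (Ccl5, Il2rg and Lag3), 1 without chronic replicates 2 or 4 or healthy replicates 2, 4 or 5. Of the 20 genes below the filter, 17 had more counts per library in the chronic phase than in health and 3 had fewer (Cd5, Ctla4 and Klrd1). In 3 the groups did not overlap (Cd3g, Klrk1 and Icos). Icos had 2, 2, 1, 0 and 1 healthy and 2, 3, 5 and 8 chronic counts, apart only after scaling (edgeR adjusted p without the filter 0.374). Shares over all genes below the filter were not computed, so such counts cannot be weighed, here or in the B cell and neutrophil lists. Cd3g, a chain of the T cell receptor complex, had 0 counts in every healthy library and 3, 5, 4 and 23 counts in the chronic ones, at least 14.3-fold higher. Klrk1, a receptor of NK and CD8 T cells, had 0 and 3, 3, 8 and 8 counts, at least 8.99-fold higher. Cd8a had 1 count in health and 8, 5, 0 and 14 in the chronic phase. When no filter was applied, 4 of the 20 passed the test: Cd3g (adjusted p = 0.000947), Klrk1 (0.0033), Cd8a (0.0141) and Cd3d (0.0309). B cell and plasma cell genes gave no call among 6 tested (median 0.00; none at an unadjusted p under 0.05, none by DESeq2), and Ms4a1, a defining B cell gene, had 0 counts in the healthy and in the chronic libraries. Cd22, which B cells and microglia carry, had 0 healthy counts and 7, 0, 5 and 19 chronic ones, at least 12.7-fold higher, and was the 1 gene of the 17 below the filter that passed the test when no filter was applied (adjusted p = 0.0318). Of these 17, 12 had more counts per library in the chronic phase and 3 had fewer (Blk, Ighg3 and Tnfrsf17). Antibody genes of plasma cells were found in both sets. Igha had 2 healthy counts and 5, 5, 1 and 15 chronic ones, a ratio of 15.9 (95% interval 3.99 to 138.5, adjusted p without the filter 0.0728). Ighg2b had 2 and 13 counts (ratio 7.97, 1.80 to 72.7, adjusted p without the filter 0.395), with 9 of the 13 in chronic replicate 4. Jchain, which joins antibody units, had 14 and 39 (3.42, 1.81 to 6.81, adjusted p without the filter 0.152), with 18 of the 39 in that library. Ighg3 had 4 and 1 counts, and the plasma cell genes Tnfrsf17 and Mzb1 had 7 and 4 and 7 and 9.

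Monocyte, macrophage and dendritic cell markers were higher in 9 of 22 (median 1.22). Plac8 had 3 healthy counts and 100 chronic ones (0.555, 1.88, 1.12 and 1.69 CPM), a ratio of 40.9 (13.6 to 201.5), Ly6c2, a monocyte marker, had 0 and 17 counts, at least 6.95-fold higher, and Cd52 rose by 2.51. The summed CPM of this list was 24.8 to 30.6 in health and 40.5 to 73.5 in the chronic phase, highest in chronic replicate 4, and 6 members were called without the 2 libraries that stood apart. Of 5 tested genes on the neutrophil list 4 were higher, in every fit with a library left out: S100a8 (0 to 0.222 CPM against 0.999, 0.966, 0.906 and 1.21 CPM), S100a9 (3.26), Csf3r (1.45) and Lcn2. Lcn2, with 0 healthy counts, and S100a8 passed the filter only through EAE libraries, so 4 of 5 cannot be weighed against the share over all genes. The other 9 genes of the list were below the filter, and 7 of them had more counts per library in the chronic phase. Ngp, a granule protein, had 2 healthy counts and 5, 1, 4 and 4 chronic ones, a ratio of 8.58 (95% interval 1.97 to 77.8), and Camp, another, 0 and 7 counts, at least 2.86-fold higher. The surface protein gene Ly6g had 0 and 1 counts, Ltf 0 and 3, Elane 0 and 0, and Mpo 15 and 6. None of the 9 passed the test when no filter was applied (lowest adjusted p 0.256). Which cells the 4 called genes came from was not tested.

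Lcn2, the iron-binding lipocalin 2 (chr2:32384633-32388252), gave the smallest adjusted p of all genes. It had 0 counts in each of the 5 healthy libraries and 2.55, 3.15, 2.98 and 3.58 CPM in the chronic ones (232 counts), at least 94.8-fold higher (adjusted p = 8.83e-06). Its 4 chronic values were close together and did not set chronic replicate 4 apart, unlike those of the MHC genes.

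Microglial genes were followed as a homeostatic list, which marks resting cells, and an activated-state list. Of 18 homeostatic genes 17 had a positive change (median 0.55) and edgeR called 1 (11 at an unadjusted p under 0.05, 6 called by DESeq2). This was Itgam, an integrin of myeloid cells (1.13, adjusted p = 0.0401), of which 68.7% of exon bases overlap Gm49368 on the same strand. Its call was lost without chronic replicates 2 or 4 or healthy replicates 1, 3, 4 or 5 (adjusted p from 0.0581 without healthy replicate 3 to 0.234 without chronic replicate 4). P2ry12, a purinergic receptor of resting microglia, stood at 6.95, 7.03, 9.52, 7.26 and 7.04 CPM against 9.77, 7.01, 6.34 and 10.9 CPM (0.17, adjusted p = 0.698). Tmem119 gave 0.77 (adjusted p = 0.115), and the summed CPM of the list was 336 to 539 in health, 465 to 510 in chronic replicates 1 to 3 and 848 in chronic replicate 4. Of 32 activated-state genes 13 were higher (median 0.70), 7 without chronic replicate 4, healthy replicate 4 or both libraries that stood apart, and 8 without healthy replicates 1, 2 or 5. Clec7a, a receptor for fungal glucans that marks activated microglia, went from 0 to 0.271 CPM to 1.05, 0.915, 0.693 and 1.69 CPM (3.74, SE 0.56, adjusted p = 0.00113). Lyz2, lysozyme, went from 1.76 to 3.44 CPM to 10.9, 10.5, 6.02 and 21.3 CPM (2.25, adjusted p = 0.00722). Spi1, the factor that specifies myeloid cells, rose by 0.91. Trem2, a lipid-sensing receptor, stood at 3.57 to 5.20 CPM in health and at 4.0 to 5.22 CPM in chronic replicates 1 to 3 and 12.2 CPM in chronic replicate 4 (0.51, adjusted p = 0.464). Apoe gave 0.78 (adjusted p = 0.45) and Spp1 -0.01 (adjusted p = 0.994).

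Of 14 phagocyte oxidase, nitric oxide and tryptophan genes 5 were higher and none lower (median 1.05). The phagocyte oxidase makes superoxide, and its subunits Cybb, Cyba and Ncf1 rose by 3.90, 1.19 and 1.02 and its GTPase Rac2 by 1.66. The subunit Ncf4 was not called (adjusted p = 0.074). The fifth called gene was the metal transporter Slc11a1 (1.64). Ncf1 was at 4.0 to 5.90 CPM in health and 9.10, 9.76, 9.75 and 9.80 CPM in the chronic phase (SE 0.11, adjusted p = 9.56e-05) and its values did not set chronic replicate 4 apart. Of the list, 3 members were called without the 2 libraries that stood apart. Of 38 pattern recognition, inflammasome and cytokine genes 12 were higher (median 0.68), 5 without chronic replicate 4 and 7 without healthy replicate 1. Gsdmd, whose cleaved form opens pores in the membrane, went from 0.665 to 1.20 CPM to 2.0, 3.51, 2.61 and 3.21 CPM (1.62, SE 0.24, adjusted p = 0.00098). Casp4 (known as caspase-11 in the mouse), which cleaves it, rose by 2.50. Il1rn, the antagonist of interleukin-1, had 0 healthy counts and 58 chronic ones (0.0555, 0.813, 1.07 and 1.11 CPM), at least 23.7-fold higher. Il1b, interleukin-1 beta itself, stood at 0.271 to 0.60 CPM against 0.813 to 1.58 CPM (1.27, adjusted p = 0.107), and Tnf, below the filter, had 1 count in health and 11 in the chronic phase. Inhibitory immune genes were called higher in 6 of 13 (median 0.92), 3 without chronic replicate 4 or healthy replicate 4. The checkpoint ligand Cd274 (PD-L1) went from 0.988 to 2.11 CPM to 3.94, 6.15, 4.0 and 11.1 CPM (2.24, SE 0.37, adjusted p = 0.00486), and Lgals9 rose by 1.25.

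**Figure D3:**
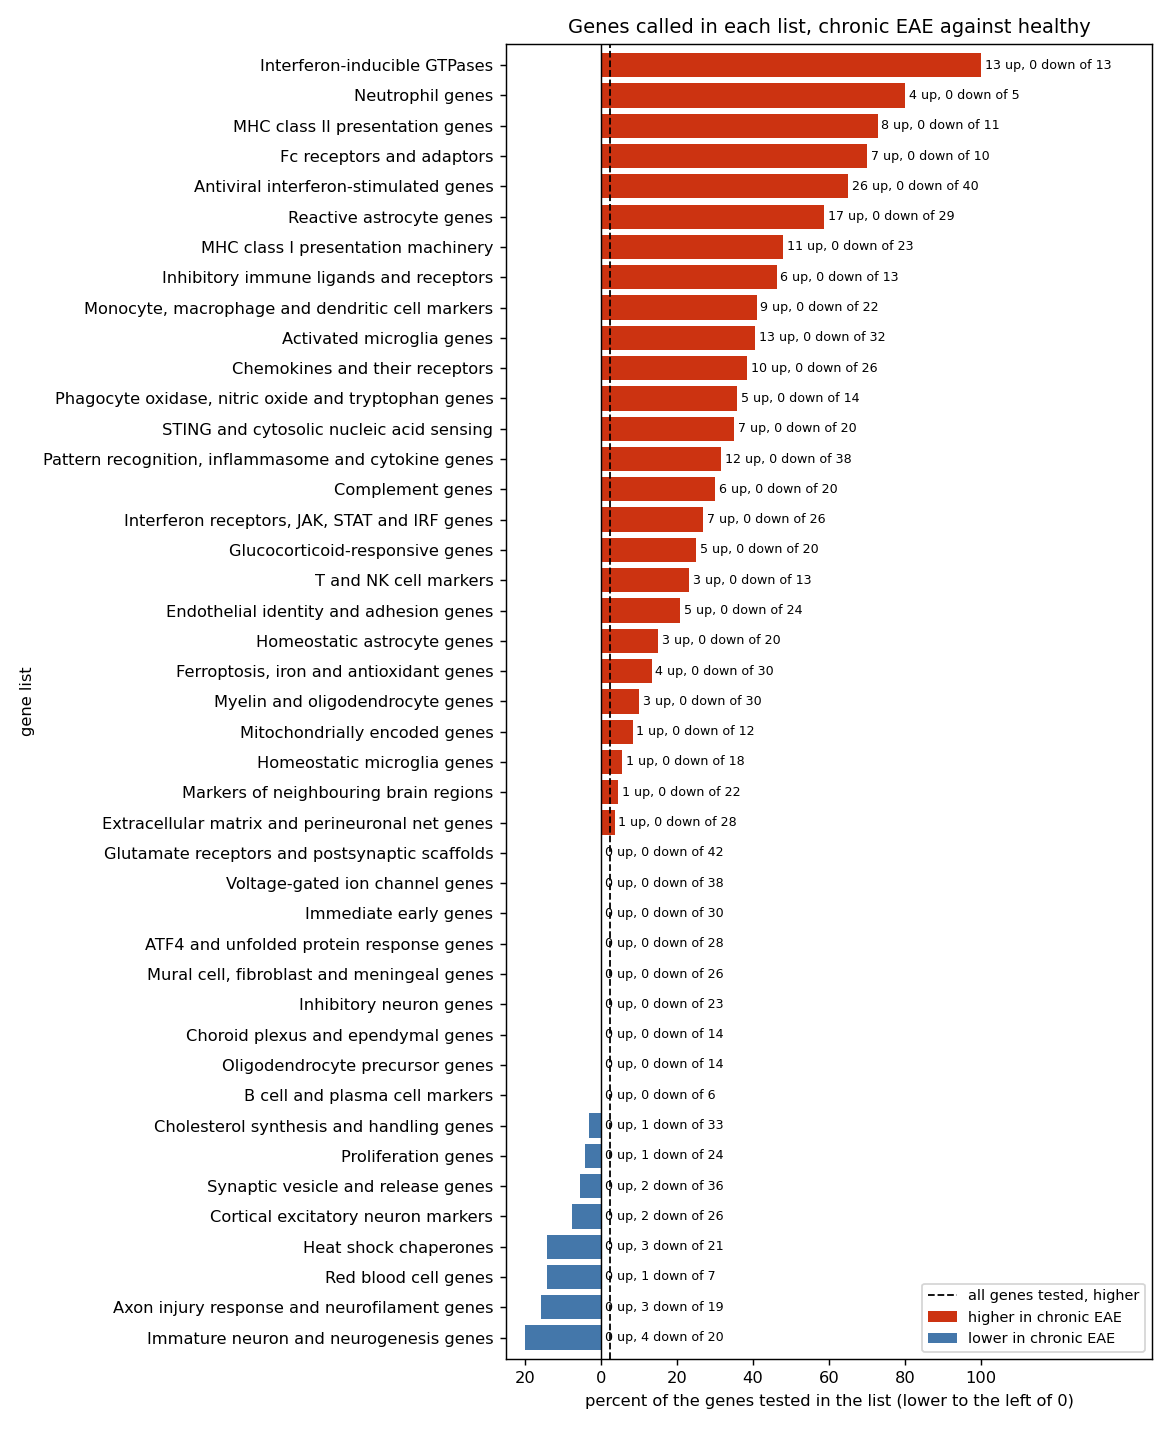
Percent of the genes tested in each list that were called higher (red, to the right) or lower (blue, to the left) in chronic EAE against healthy cortex, with counts beside the bars. The dashed line is the 2.33% of all genes called higher. Among the longest bars are those of the interferon-inducible GTPases (13 of 13), the neutrophil list (4 of 5) and the MHC class II genes (8 of 11), whereas the lists of neuronal genes have no gene called higher. The other 9 neutrophil genes were below the filter and are not in that bar. Lcn2, with 0 healthy counts, passed the filter only through EAE libraries, so the neutrophil bar cannot be weighed against the line. The same limit holds for other bars. Fcgr4, Ifi205 and Il1rn (0 healthy counts), Cxcl9 (1) and Ccl5, Plac8 and Cd300lf (3) also passed only through EAE libraries. The lists were chosen with earlier results of these data known.

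Reactive astrocyte genes were higher in 17 of 29 (median 1.06), 11 without chronic replicate 4 or healthy replicate 5 and 10 without the 2 libraries that stood apart. Gfap, the astrocyte filament protein (chr11:102887336-102900912), stood at 75.6, 85.5, 71.9, 83.2 and 91.2 CPM in health and at 139, 222, 179 and 247 CPM in the chronic phase. That is a 2.42-fold rise, with all chronic libraries above all healthy ones (log2 1.27, SE 0.15, adjusted p = 0.00142). Vim, vimentin, gave 0.99 (adjusted p = 0.0131), lost without chronic replicate 4 (adjusted p = 0.0651), and ceruloplasmin (Cp), which oxidises iron for export, rose by 1.10. Of the 17 called genes, Cxcl10, Iigp1, Gbp2, H2-D1, H2-T23, Psmb8, C3 and C4b are also interferon, MHC or complement genes that other cells express. Of 20 homeostatic astrocyte genes all had a positive change (median 0.38) and 3 were higher. Glul, glutamine synthetase, went from 1054 to 1206 CPM to 1341 to 1484 CPM (0.30, SE 0.05, adjusted p = 0.00429) and Ndrg2 rose by 0.35. Aldoc, a glycolytic enzyme, gave 0.24 and was lost in 5 of 9 fits with a library left out (adjusted p up to 0.116, without chronic replicate 4).

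Glucocorticoid-responsive and metal-binding genes gave a few calls. Mt1, a metallothionein that binds zinc and copper, went from 157 to 172 CPM to 203, 225, 226 and 213 CPM (0.41, SE 0.07, adjusted p = 0.00415). Mt2, of which 73.5% of exon bases lie under an opposite-strand gene, rose by 0.48. Of 20 genes on the glucocorticoid list 5 were higher (Lcn2, Mt1, Mt2, Plin4 and Sult1a1), 3 without any one of chronic replicates 2, 3 or 4 or healthy replicates 1, 2 or 3, and 2 without the 2 libraries that stood apart. Plin4, a lipid droplet protein, lost its call in 7 of the 9 fits with a library left out (adjusted p up to 0.084, without healthy replicate 1). Among 30 ferroptosis, iron and antioxidant genes 4 were higher and none lower (median 0.04), among them Cp. The ferritin heavy chain Fth1 went from 1466 to 1536 CPM to 1881, 1714, 1735 and 1841 CPM (0.25, SE 0.04, adjusted p = 0.00112), and the light chain Ftl1 gave 0.21. The peroxiredoxin Prdx6 went from 167 to 178 CPM to 218, 213, 204 and 240 CPM (0.34, SE 0.05, adjusted p = 0.00159). In Fth1 and Prdx6 the groups were apart. Gpx4, the lipid peroxidase that holds back ferroptosis, stood at 280.1 to 302.5 CPM in health and 277 to 348 CPM in the chronic phase (0.09, SE 0.06, adjusted p = 0.576). The call of Ftl1, which has near-identical copies, was lost in 6 of the 9 fits with a library left out, with adjusted p up to 0.193 without chronic replicate 4.

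Of 30 myelin genes of oligodendrocytes 3 were called higher by edgeR (13 at an unadjusted p under 0.05, 8 called by DESeq2), and 29 had a positive change (median 0.30). Mobp, a structural myelin protein, went from 222 to 264 CPM to 288, 302, 278 and 338 CPM (0.31, SE 0.06, adjusted p = 0.00703), and Plekhb1 and the node protein Hapln2 gave 0.31 and 0.55. Plekhb1 and Hapln2 lost their calls without chronic replicate 4 (adjusted p = 0.0519 and 0.0688), and none of the 30 was called without the 2 libraries that stood apart. Mog, the protein whose peptide serves as the immunogen, stood at 31.1 to 48.7 CPM in health and at 44.1, 42.2, 40.6 and 62.3 CPM in the chronic phase (0.30, adjusted p = 0.467). Oligodendrocyte precursor genes gave 0 calls of 14 by edgeR (none at an unadjusted p under 0.05, none by DESeq2), with a median of 0.14.

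Endothelial genes were higher in 5 of 24 (median 0.48). Vwf, von Willebrand factor (chr6:125546774-125686679), stored in endothelial granules, went from 0.85, 1.43, 1.07, 1.25 and 1.77 CPM to 4.72, 4.93, 2.83 and 4.11 CPM (1.70, SE 0.22, adjusted p = 0.000548). Icam1, which leukocytes grip when they leave vessels, rose by 1.89, from 0.166 to 0.90 CPM to 1.5, 1.07, 1.28 and 1.95 CPM (adjusted p = 0.00914), Ly6a by 1.56 and endoglin (Eng) by 0.76. The barrier gene Cldn5 stood at 0.09 (adjusted p = 0.89). The selectin Sele, below the filter, had 0 healthy counts and 15, 5, 0 and 1 chronic ones. Mural cell and meningeal genes gave 0 calls of 26 (5 at an unadjusted p under 0.05, against 2310 of all 16381 genes, 3 by DESeq2, median 0.30). Choroid plexus and ependymal genes gave 0 of 14 (3 and 0; median 0.78, with a summed CPM of 18.3 to 194 in health and 24.5 to 314 in the chronic phase). Of 22 markers of neighbouring brain regions 1 was called (Ociad2, 0.28; median 0.07). Without the 2 libraries that stood apart 2 endothelial genes were called.

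**Figure D4:**
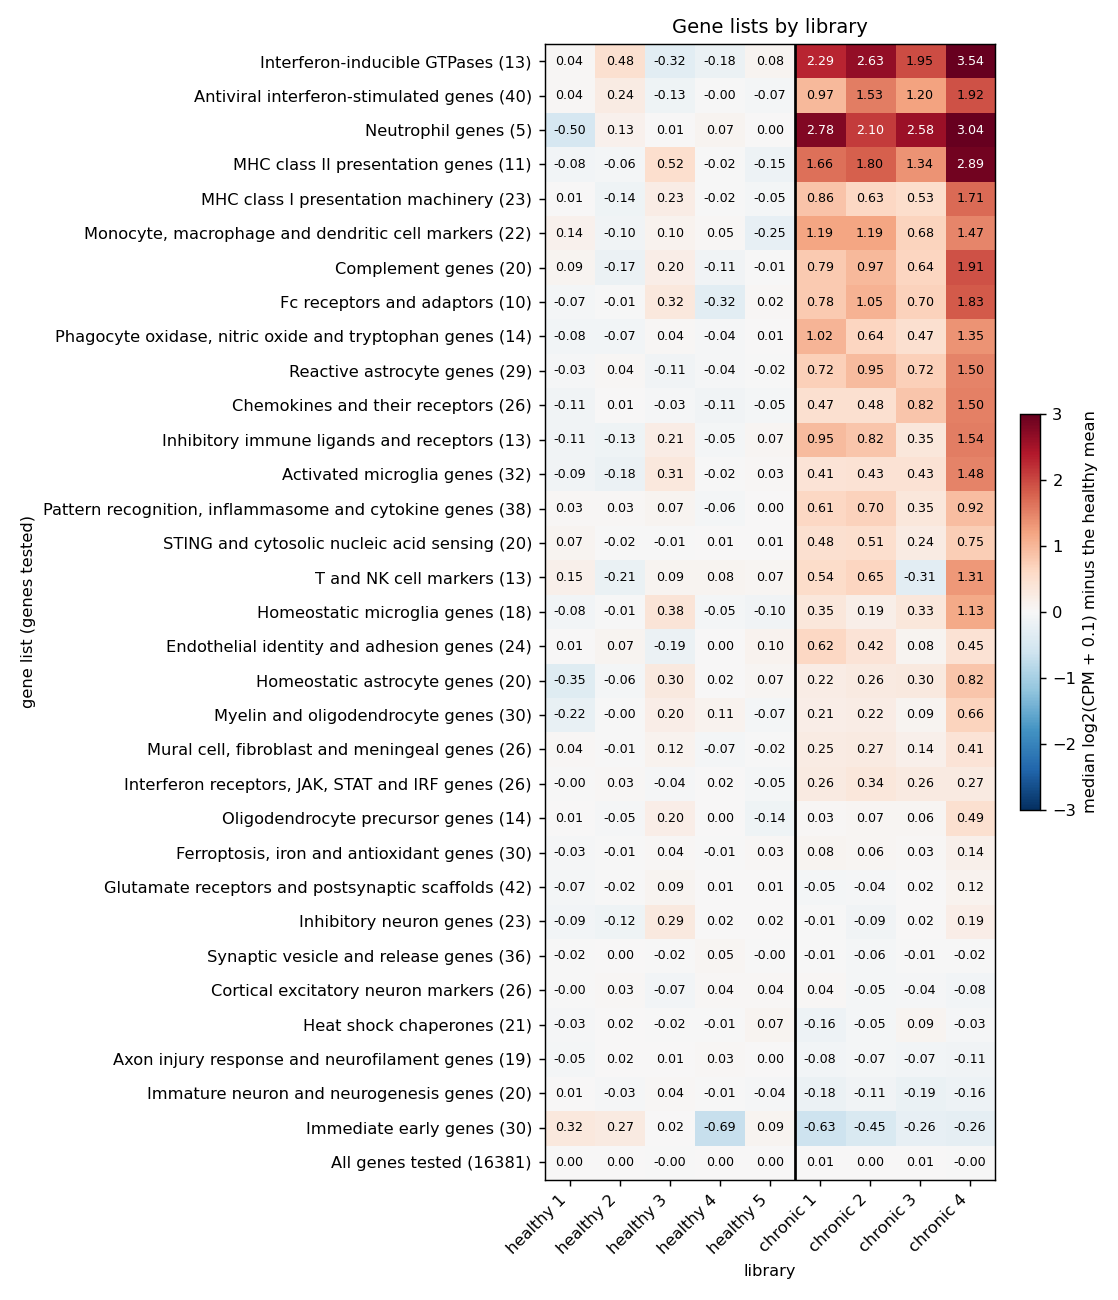
Median over each list of log2(CPM + 0.1) minus the gene's healthy mean, for each of the 9 libraries (columns, split at the line between healthy and chronic). The interferon, MHC, complement, microglia and astrocyte lists are positive in all 4 chronic libraries. The immediate early gene list is negative in the 4 chronic libraries and in healthy replicate 4 (-0.69), and the lists of cortical neuron, vesicle release and glutamate receptor genes lie between -0.08 and 0.12.

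Few genes of the neuronal lists were called: among 26 cortical excitatory neuron markers 2 were lower and none higher (median -0.03). The 23 inhibitory neuron genes gave 0 calls by edgeR (2 at an unadjusted p under 0.05, 0 by DESeq2; median 0.01). Foxo6, a forkhead factor of cortical and hippocampal neurons (chr4:120267079-120287349), fell from 34.0, 31.0, 29.3, 25.6 and 33.4 CPM to 18.1, 19.6, 23 and 21.3 CPM. The groups were apart, and the log2 change of -0.58 (SE 0.09, adjusted p = 0.00131) was -0.61 without the 2 libraries that stood apart. Calb1, calbindin, gave -0.18 (adjusted p = 0.0204), lost without chronic replicates 1 or 4 or healthy replicates 1 or 5 (adjusted p = 0.0501, 0.0801, 0.0658 and 0.0659). Colgalt2, the present name of the gene whose promoter drives the transgene, stood at 53.1 to 59.4 CPM in health and 50.9 to 57.6 CPM in the chronic phase (-0.05, SE 0.05, adjusted p = 0.729).

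Genes of the cytoskeleton and of axon growth were among those called lower. Tubb2a, a neuronal beta-tubulin (chr13:34074301-34078008), fell from 634.5, 632, 659.8, 623 and 649 CPM to 483, 513, 526 and 530 CPM, by 0.32 on the log2 scale (SE 0.04, adjusted p = 0.000116). Dcx, the microtubule protein doublecortin of migrating and young neurons, went from 33.0 to 47.7 CPM to 26.6 to 29.1 CPM (-0.43, adjusted p = 0.0162), lost without chronic replicate 4 (adjusted p = 0.0617). Dpysl3, a collapsin response mediator, fell by 0.32 (adjusted p = 0.00266). Gap43, the growth cone protein, went from 396 to 490 CPM to 347 to 378 CPM (-0.27, adjusted p = 0.0124), lost without chronic replicates 1 or 3 (adjusted p = 0.0555 and 0.0511). These 3 and Tubb3 (-0.18) are the 4 genes called lower of 20 on the immature neuron list (median -0.17), of which 2 were called without chronic replicates 3 or 4 or without both libraries that stood apart. Tubb3, Gap43 and Hrk (-0.28) are the 3 called lower of 19 axon injury and neurofilament genes (median -0.06), 1 without chronic replicates 1, 3 or 4 and 0 without the 2 libraries that stood apart. The injury factor Jun stood at -0.33 (adjusted p = 0.103). Summed over 12 alpha- and beta-tubulin genes, a list chosen after the values were seen, CPM was 5412 to 5672 in health and 4943 to 5152 in the chronic phase, and 4 of the 12 were called lower (Tubb2a, Tuba1a, Tubb5 and Tubb3). Tuba1a, Tubb5 and Tubb3 were not called in every fit with a library left out (adjusted p up to 0.0635, 0.053 and 0.0734, without chronic replicates 2, 2 and 3).

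Other lower genes had single roles. Tnnc1, a troponin C, went from 12.7 to 16.4 CPM to 10.7, 8.23, 6.98 and 8.38 CPM (-0.69, SE 0.13, adjusted p = 0.00606). Camk2d, a calcium-dependent kinase, went from 150.5 to 173 CPM to 115, 133, 133 and 129.5 CPM (-0.33, adjusted p = 0.006). Dtl, which directs replication proteins to degradation, went from 16.9 to 22.2 CPM to 12.1 to 14.3 CPM (-0.57, adjusted p = 0.00237), with groups apart. The prohormone convertase Pcsk1 gave -0.42 (adjusted p = 0.0251) and was lost in 6 of 9 fits with a library left out (adjusted p up to 0.0906 without chronic replicate 1). The receptor-sorting proteins Gprasp1 and Gprasp2, neighbours on the X chromosome, fell by 0.28 and 0.31, the histone gene Hist3h2ba by 0.39, Fam43b by 0.33 and the splicing factor Tfip11 by 0.30, all in every fit with a library left out. Exon bases of Fam43b overlap an opposite-strand gene over 37.7% of their length. Dtl was the 1 gene called of 24 proliferation genes (median 0.02).

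Immediate early genes, which neurons switch on within minutes of activity, had a negative change in all 30 members (median -0.44), but edgeR called none (11 at an unadjusted p under 0.05, 5 called lower by DESeq2). Healthy replicate 4 lay apart from the other healthy libraries in these genes. Arc, a synaptic plasticity gene, stood at 348, 291, 313, 48.9 and 224 CPM in health and at 90.5, 122, 163 and 233 CPM in the chronic phase (-0.69, SE 0.48, adjusted p = 0.574). Fos stood at 89.5, 79.1, 71.9, 15.5 and 58.2 CPM against 19.1, 23.9, 31.6 and 38.3 CPM (-1.15, adjusted p = 0.261). Egr1 stood at 741, 746, 589.8, 377 and 646 CPM against 397, 374, 444 and 413 CPM (-0.61, adjusted p = 0.183). In Fos and Egr1 the groups overlapped only through healthy replicate 4, and in Arc also through healthy replicate 5, which lay below chronic replicate 4. Without healthy replicate 4 edgeR called 10 of the 30 lower (median -0.59), among them Fos (adjusted p = 0.0395), Egr1 (0.0319), and Egr2 and Nr4a3 (0.0173 and 0.0245), but not Arc. In none of the other 8 fits with a library left out was a member called. Of 36 synaptic vesicle and release genes 2 were lower (Syn2, -0.15, and Doc2a, -0.33; median 0.01). Neither was called in every fit with a library left out (adjusted p up to 0.129 without chronic replicate 1 and 0.0764 without chronic replicate 4). Exon bases of Doc2a overlap an opposite-strand gene over 39.4% of their length. Of 42 glutamate receptor and scaffold genes none was called by edgeR (3 at an unadjusted p under 0.05, none by DESeq2, median 0.01). Of 38 ion channel genes none was called either (7 and 1, median 0.05). Over all 16381 genes tested, 2310 had an unadjusted p under 0.05.

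Of the stress programs, 21 heat shock chaperone genes held 3 that were lower and none higher (median -0.01), 1 without chronic replicates 1, 2 or 4 or healthy replicate 5. Hsp90aa1, an HSP90 chaperone, went from 1227 to 1363 CPM to 1050 to 1176 CPM (-0.20, SE 0.04, adjusted p = 0.00961). Hsp90ab1 and Dnajb5 gave -0.14 and -0.34, both lost without several libraries (adjusted p up to 0.132 and 0.103, without chronic replicate 4). The 28 genes of the ATF4 and unfolded protein response gave no call by edgeR (4 at an unadjusted p under 0.05, 1 by DESeq2, median 0.12). These 4 of 28 are near the share over all genes tested (2310 of 16381). Of 33 cholesterol genes 1 was lower (Hmgcs1, -0.24, adjusted p = 0.0259, lost in 6 of 9 fits with a library left out, up to 0.0871 without chronic replicate 2; median 0.01). Of 28 matrix genes 1 was higher (Hapln2; median 0.28). The 7 genes tested on the red cell list had a median of 0.61, and none was called higher. Of 12 mitochondrially encoded genes 1 was higher (mt-Nd3, 1.35, adjusted p = 0.0353, lost in 6 of 9 fits, up to 0.156 without chronic replicate 4; median 0.32). The summed CPM of the mitochondrial genes was 2831 to 5598 in health and 3054 to 7686 in the chronic phase, highest in healthy replicate 3 and chronic replicate 4.

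Against the acute phase, nearly all antiviral and GTPase genes were lower in the chronic cortex. Several other immune lists were lower in a smaller share of their members. Few or none of the MHC class II, complement and neutrophil genes were called lower, although the medians of these lists were below 0 as well. This test of the difference equals the chronic change minus the acute change from the same healthy libraries. In all, 1259 genes (7.69%) differed, 483 higher (2.95%) and 776 lower (4.74%) in the chronic phase. The total fell to 784 without chronic replicate 2, and the higher genes to 259 without chronic replicate 2, 287 without acute replicate 3 and 314 without chronic replicate 1. Of the 382 genes higher than in health, 137 were below their acute level. The antiviral list was below the acute level in 38 of 40 members (median -1.42) and the GTPases in 12 of 13 (median -1.63). Below the acute level were also 9 of 26 interferon receptor, JAK, STAT and IRF genes (median -0.14) and 9 of 23 MHC class I genes (median -0.52). So were 8 of 26 chemokine genes (median -0.37) and 8 of 22 monocyte, macrophage and dendritic cell markers (median -0.94). The same held for 6 of 38 pattern recognition, inflammasome and cytokine genes (median -0.435) and 4 of 32 activated-state microglia genes (median -0.22). It also held for 9 of 29 reactive astrocyte genes (median -0.475) and 10 of 20 glucocorticoid-responsive genes (median -0.53). Called below the acute level were 1 of 11 MHC class II genes (median -0.65), 1 of 20 complement genes (median -0.28) and 0 of 5 neutrophil genes (median -0.68). The MHC class II and neutrophil medians lay further below 0 than those of MHC class I and chemokine genes. The few calls therefore do not show that these lists held their acute level. Isg15 stood at 21.3 to 52.8 CPM in the acute phase, against 3.55 to 6.80 CPM in the chronic one, a difference of -2.59 (adjusted p = 0.0012). Gfap stood at 374 CPM (SD 48.9, n = 5) in the acute phase, a difference of -0.93 (adjusted p = 0.00445).

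Several genes had a chronic level that was not told apart from the acute one. For Tmem173 the difference was -0.32 (95% interval -0.94 to 0.30, adjusted p = 0.575), for Prdx6 it was -0.00 (-0.11 to 0.11), for C3ar1, the C3a receptor, 0.07 (-0.55 to 0.68). It was -0.02 for Csf3r (-0.51 to 0.46), 0.41 for Ccl22 (-0.29 to 1.11) and 0.56 for Vwf (0.13 to 0.99, adjusted p = 0.104). These intervals give the differences that the data allow.

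Among the genes called against health, 8 stood above their acute level. Il33, an alarmin released by oligodendrocytes and astrocytes (chr19:29925114-29960718), was at 57.9, 64.9, 60, 69.4 and 56.7 CPM in health, at 49.2, 47.1, 50.4, 48.6 and 51.8 CPM in the acute phase and at 82.5, 78.4, 68.2 and 92.2 CPM in the chronic phase. It thus lay below health in the acute phase (-0.32, adjusted p = 0.00293) and above it in the chronic one (0.38, SE 0.07, adjusted p = 0.0063), with a difference of 0.70 (SE 0.07, adjusted p = 0.000137). The chronic and healthy groups overlapped slightly, and the chronic call was lost without the 2 libraries that stood apart (adjusted p = 0.0556). Ppp1r16b, a phosphatase subunit, stood at 126 CPM (SD 4.02, n = 5) in the acute phase, 123 to 148 CPM in health and at 165, 154, 159 and 165 CPM in the chronic one (difference 0.35, adjusted p = 0.000646). Gprasp1, Slit2, an axon guidance cue, and Dgkb, a diacylglycerol kinase, were lower than health in both phases and nearer to it in the chronic one (differences 0.30, 0.45 and 0.24). Slit2 and Dgkb lost their calls against health in 8 and 7 of the 9 fits with a library left out, with adjusted p up to 0.13 and 0.119 (without chronic replicates 3 and 1). Plekhb1, Hapln2 and Zc3h7a were the others (0.22, 0.40 and 0.24), and Zc3h7a was lost against health in all 9 such fits (adjusted p up to 0.142, without chronic replicate 2).

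In the other direction, the glycolytic enzyme Aldoa and the G protein subunit Gnas were above health in the acute phase (0.13 and 0.15) and below it in the chronic one (-0.14 and -0.19), with differences of -0.27 and -0.34. Aldoa lost its call against health without chronic replicate 4 (adjusted p = 0.0582). That of Gnas, whose chronic and healthy groups overlapped, was lost without chronic replicates 3 or 4 or healthy replicates 1, 2 or 5 (adjusted p = 0.0666, 0.0633, 0.0706, 0.057 and 0.0518). The uncoupling protein Ucp2 stood at 12.8 to 15.4 CPM in health, 20.4 to 28.7 CPM in the chronic and 34.7 to 45.2 CPM in the acute phase (difference -0.73, adjusted p = 0.000427). The 3 groups did not overlap. Foxo6 differed from both other groups. Its acute level was 29.7 CPM (SD 1.63, n = 5; acute against healthy -0.04, adjusted p = 0.742), and the chronic level was lower than the acute by 0.53 on the log2 scale (adjusted p = 0.0014). Myelin genes were above the acute level in 6 of 30 members and below it in none (median 0.31). Ion channel and glutamate receptor genes were above it in 12 of 38 and 6 of 42, against 2.95% of all genes. In the acute phase 13 of these 38 were below health and 3 above, and 12 of these 42 below and 0 above. Of all 16381 genes 1407 were below health in that phase. No gene of either list was called in the chronic phase against health (medians 0.05 and 0.01).

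**Figure D5:**
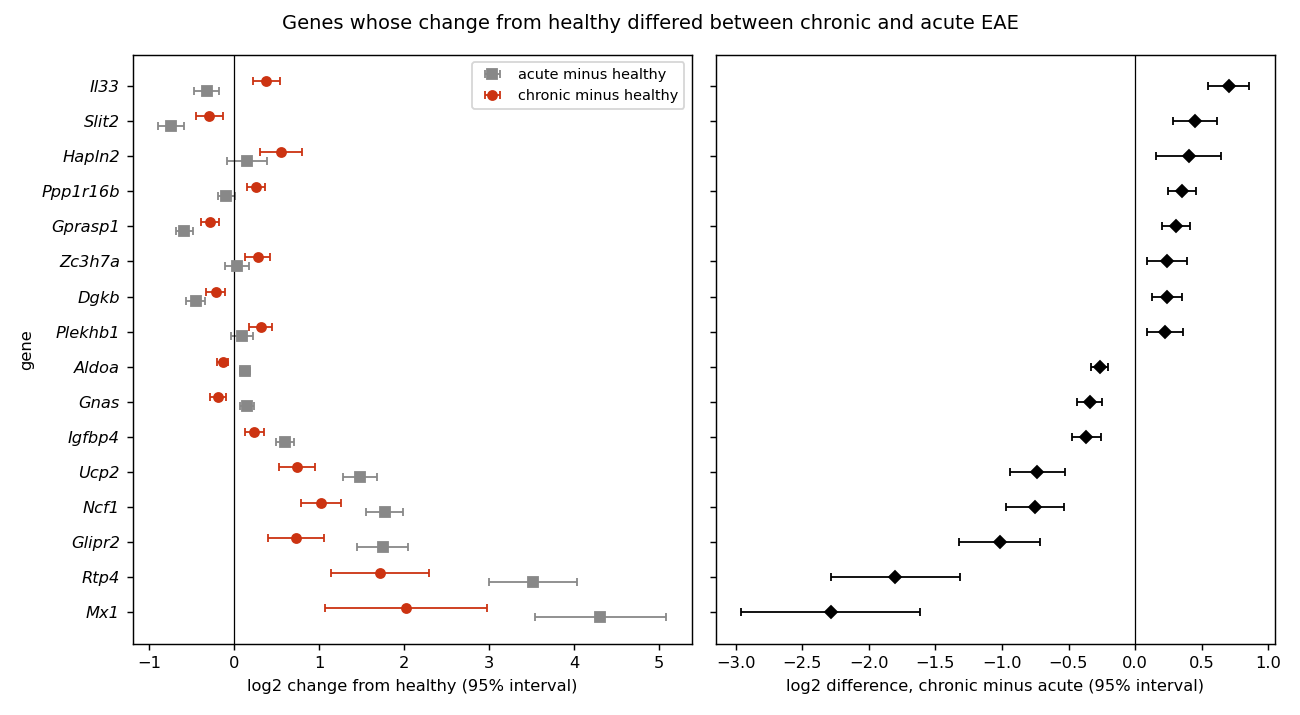
The 16 genes named for the difference between phases: log2 change from healthy cortex in chronic (red) and acute EAE (grey) on the left, and chronic minus acute (black) on the right, with 95% intervals. Il33 lies on opposite sides of 0 in the 2 phases, while Mx1 and Rtp4 are higher than health in both and far lower in the chronic phase than in the acute one (-2.29 and -1.80).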

How the data were processed

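The values are read counts per gene as the authors deposited them. Per the file headers, exons of Ensembl release 79 genes (GRCm38) were counted over read pairs with featureCounts 1.5.1, without a strand setting, so reads of overlapping and antisense genes cannot be told apart. Per the submitters' processing notes, reads were aligned with STAR 2.4 to GRCm38/mm10 and DESeq2 was used. Exon lengths were deposited beside the counts and were not used. Symbols were found for 42462 of 43629 genes (97.3%), and 16381 genes passed edgeR's filter (minimum count 10, total 15).

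The 14 input libraries (5 healthy, 5 acute, 4 chronic, grouped by the labels) were fitted together with edgeR 4.0.16 (R 4.3.3, limma 3.58.1): TMM scaling, robust quasi-likelihood F test, Benjamini-Hochberg adjusted p under 0.05, no minimum change. Errors are SE of log2 changes, and ranges are over libraries. A gene with 0 healthy counts is given a fold against 3 counts over the group, and ratios with 1 to 3 healthy counts have exact 95% intervals. The alternatives were DESeq2 size factors, no filter, DESeq2 1.42.0, a replicate block, other sets of libraries and leaving out each library. Leaving out chronic replicate 4 with healthy replicate 3 was chosen after the data were seen.

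Genes were named by rule. From the called genes with non-overlapping groups and average log2 CPM 1 or more came the 15 of largest change in each direction. To these were added up to 4 members of each list by adjusted p, up to 8 genes in each direction by the difference from the acute phase, Tmem173, Gpx4 and Colgalt2, and further members as examples of a role. The members and the 43 lists (989 genes, 888 tested) were chosen with earlier results of these data known. In simulated data for this comparison (16170 genes), the test recovered 71% of 1.5-fold, 82.9% of 2-fold and 95.5% of 4-fold changes, with 12 false calls of 177. No library pair agreed within counting noise (chi-square over degrees of freedom 4.24 to 16.3). Figures used matplotlib 3.10.9 (Python 3.11.15), and intervals scipy 1.17.1. A few genes are not reported here.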

Additional observations from a re-analysis of the deposited data

Results flagged for a closer look

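Single libraries far from the rest of their group were looked for in 226 sets of values (70 genes and the summed CPM of each list, by group) with Dixon's gap ratio, and 28 stood out (12.4%). Chance gives about 1 in 20 only for independent sets of normally spread values. Here list sums held genes also examined singly, and a single count against zeros always stood out, so no excess over chance can be read. Of the 28, 15 were chronic replicate 4 and 6 healthy replicate 3.

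Chronic replicate 4 stood above the other 3 chronic libraries in H2-K1 (89.3 CPM, others 17.1 to 25.7), B2m (209 CPM), Cd74 (72.5 CPM), H2-Aa (25.3 CPM), Cxcl9 (4.95 CPM), Trem2 (12.2 CPM), Mog (62.3 CPM) and Cybb (3.0 CPM). It also stood above them in the summed CPM of MHC class I genes (1419), MHC class II genes (216), complement (222), homeostatic microglia (848), activated microglia (4371), oligodendrocyte precursor (714) and pattern recognition, inflammasome and cytokine genes (216). Healthy replicate 3 stood above the other healthy libraries in Plac8 (0.169 CPM, others 0), P2ry12 (9.52 CPM) and the summed CPM of MHC class II genes (31.0), complement (62.3), homeostatic microglia (539) and cholesterol genes (2258). The remaining single values were Irf7 (3.29 CPM) and Cxcl9 (0.0549 CPM, others 0) in healthy replicate 2, Clec7a (0.271 CPM) in healthy replicate 4, Ncf1 (9.10 CPM, the low one) and cortical neuron markers (10481 summed CPM) in chronic replicate 1, iron and antioxidant genes (3572) in healthy replicate 5 and the red cell list (547) in chronic replicate 3.

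The change from health differed between the chronic and the acute phase in 1259 genes by edgeR's test of the difference. Among the named genes the chronic level was above the acute one for Il33 (log2 difference 0.70), Ppp1r16b (0.35), Gprasp1 (0.30), Slit2 (0.45), Dgkb (0.24), Plekhb1 (0.22), Hapln2 (0.40) and Zc3h7a (0.24). It was below for Aldoa (-0.27), Gnas (-0.34), Ucp2 (-0.73), Ncf1 (-0.75), the antiviral GTPase Mx1 (-2.29), Rtp4 (-1.80), Glipr2 (-1.02) and Igfbp4 (-0.36).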

How the results depend on the processing

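Of the 449 genes called against health (382 higher, 67 lower, 247 at least 2-fold), the counts were 449 with DESeq2 size factors, 484 with no filter and 304 with only the 9 chronic and healthy libraries (157 at least 2-fold). With those 9 libraries alone the calls fell from 3 to 1 in the T and NK cell list, 13 to 7 in activated microglia, 12 to 5 in the pattern recognition, 6 to 3 in the inhibitory immune and 3 to 1 in the heat shock list. The single calls among cholesterol and mitochondrially encoded genes were lost there. DESeq2 called 687 (138 lower). With all 28 libraries in one fit edgeR called 0 in every one of these counts and 0 against the acute phase (0 higher, 0 lower; 120 and 67 genes at an unadjusted p under 0.05). Without chronic replicate 4 and healthy replicate 3 the counts were 218, 195 higher, 23 lower and 133 at least 2-fold. Leaving out each library in turn gave 250 to 447 called, 226 to 383 higher, 24 to 80 lower and 155 to 261 at least 2-fold, and against the acute phase 784 to 1188 called, 259 to 481 higher and 525 to 709 lower. The cause of these shifts was not tested. With a replicate block 386 genes were called (333 higher, 53 lower) against health and 931 against the acute phase. Same-numbered chronic and healthy libraries deviated with correlations of 0.05, 0.11, -0.06 and -0.09, and only number 2 matched its own number best, so the numbers were not taken as pairs. Of 155 called genes named by the rules, 102 were called in all 9 fits with a library left out, 123 with the block and 100 without the 2 libraries that stood apart, and none reversed. At these depths, genes with a few counts a library, among them most T, B cell and neutrophil markers, could not be tested.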

Other observations

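Genes of the cytosolic ribosomal proteins, a list chosen after the values were seen, had a positive change in 81 of 83 members (median log2 change 0.13), of which 7 were called higher and none lower. Their summed CPM was 15853 to 17022 in health and 17602 to 18730 in the chronic phase, with no overlap. In the acute phase 71 of the 83 were above health (median 0.23), and 23 were lower in the chronic than in the acute phase.

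Folr2, a folate receptor that macrophages at the borders of the brain carry (chr7:101839990-101845331), was the 1 gene called lower by more than 2-fold. It stood at 0.55, 0.494, 0.451, 0.704 and 0.665 CPM in health and at 0.111, 0.203, 0.16 and 0.211 CPM in the chronic phase (-1.70, SE 0.45, edgeR adjusted p = 0.0462). The groups did not overlap, but the call was lost in each of the 9 fits with a library left out (adjusted p = 0.0515 without healthy replicate 3 to 0.121 without chronic replicate 1), and 63.1% of its exon bases overlap Gm10602 on the opposite strand.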
